A study of Mus musculus with 2 samples.

Results

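The PPAR-regulated fatty acid metabolism genes are 47 genes, given by symbol, that handle fatty acids and stored fat. They were taken from the 29982 genes with values on the arrays as the probes whose gene name is one of the 47, and all 47 had a probe, 64 probes in all. The rule uses no measured value, but the list was chosen with earlier results of these data known. Of the 47, 42 were clearly detected, that is well above background in the same RNA on each array, which held for 21429 of the 29982 genes. The name of the list comes from what is known of these genes elsewhere, mainly in fat and liver, and the files hold no measurement of which genes PPARG regulates in the ureter.

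RNA of whole ureters, epithelium together with the surrounding mesenchyme, from NMRI mouse embryos at E16.5 was hybridised to 2 dual-colour oligonucleotide arrays, array 1 with pools from female and array 2 with pools from male embryos. On each array 1 pool of Pparg-cKO ureters (Pax2-cre/+; Pparg(fl/fl)) was set against 1 pool of control ureters (labelled Pparg(fl/?), which are littermates without cre by the study's methods), with the dyes exchanged between the arrays. Both RNAs on an array thus carry at least 1 floxed Pparg allele, and the Pax2-driven cre acts in the nephric duct, the ureteric epithelium and the renal collecting ducts, so that mesenchyme, vessels and other cells of the pool keep Pparg. A pool mixes animals, 2 arrays limit the precision of every value, and sex and dye were exchanged at the same time and so cannot be told apart. The stage of the second channel is labelled E14.5, and E16.5 was used because titles and protocols state it.

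PPARs are nuclear receptors that are activated by fatty acids and related ligands. They bind DNA with a retinoid X receptor at pairs of AGGTCA repeats separated by a single base (DR1 elements) and are known for switching on genes of fatty acid uptake, binding, storage and oxidation. PPARG is known best as the regulator of fat cell formation, and in the urothelium it is known for its part in the differentiation of superficial cells, which make the apical plaques of the urinary barrier.

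The letters of a DR1 element were looked for in the promoters of the genes, because such a site is how a PPAR would reach them. A window from 250 bases before to 50 bases after the start site was given by RefSeq (GRCm38.p6) for 35 of the 47 members and for 27025 genes in all, and AGGTCANAGGTCA was searched on both strands, with the middle base free. It was found without mismatch in 0 of the 35 members and in 13 genes in all (0.0481%). With up to 1 mismatch in the repeats it was found in 2 of 35 members, against 0.644% of all genes, and with up to 2 mismatches in 4 of 35 members, against 4.40% of all genes. The 4 matches are shown with 8 flanking bases on either side, 5′ to 3′ on the strand of the match, which in each case is opposite to that of the gene, and capitals mark both repeats.
Elovl1 (chr4:118429606-118429618, 1 mismatch): gtgggtccAGGCCAcAGGTCAatgcctag
Fabp1 (chr6:71199812-71199824, 1 mismatch): tcagatatAGGCCAtAGGTCAgtgattgt
Cd36 (chr5:17835947-17835959, 2 mismatches): atccaagtAAGTCAgAGGCCAgagaacca
Plin2 (chr4:86670272-86670284, 2 mismatches): tctgacttAGGTCAgGGGTCCtgaaagct
Fabp1 is among the members with the lowest ratios on the arrays and Cd36 is the member whose arrays differ most among those well above background, while Elovl1 and Plin2 had mean ratios near 0 (values below). A match of letters is a description and not a bound site. Members without a window were not searched, and sites outside the windows were not either. The list was named for PPAR regulation known elsewhere, so its shares of matches are no unbiased comparison with all genes.

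The genotype behind each dye is not settled. RNA A denotes the RNA that carried AlexaFluor647 (red) on array 1 and, after the dye exchange, AlexaFluor555 (green) on array 2, and RNA B denotes its partner. By the labels RNA A was control. By the study's text, and if the authors' table of signed fold changes is Pparg-cKO over control, RNA A was Pparg-cKO. That table followed RNA A over RNA B on both arrays (Pearson r 0.997 on each). The r covered 18716 (array 1) and 18969 (array 2) of 39429 probes. The study's staining found UPK1B and UPK2 protein in control luminal cells from E16.5, and in mutants only later, in few cells. Upk1b (log2 −0.55 on array 1, −0.67 on array 2) and Upk2 (−0.40 and −0.74) were dimmer in RNA A. That is the direction of the staining if RNA A was Pparg-cKO. Of 10 urothelium markers, 5 were dimmer in RNA A on both arrays, 1 brighter and 4 of opposite sign. The genotype was not tested with these values, and the conflict was not settled here. All ratios are log2 of RNA A over RNA B within an array, so a gene described as dimmer in RNA A is lower in control by the labels and lower in Pparg-cKO by the study's text.

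The targeted gene Pparg had signals of 11295 in RNA A against 7430 in RNA B on array 1 and of 12888 against 7872 on array 2, which averaged to a value of 0.66 ± 0.076 on the log2 scale (SD, n = 2 arrays). It was brighter in RNA A on both arrays, and the signals of the RNAs did not overlap. It was not analysed here whether the probe reads the deleted exons, and by the study's text the mutant still makes a transcript without them, so this value does not check which RNA was the mutant. Of markers of the labelled tissue, 10 of 10 urothelium, 6 of 6 smooth muscle and 6 of 6 mesenchyme markers were well above background. The same held for 6 of 6 markers each of endothelium, macrophages, liver, adrenal cortex, nerve and glia, and red blood cells. It also held for 21429 of all 29982 genes, so detection alone does not tell tissues apart. Of the fat cell markers only Retn was well above background, with signals of 7.47 to 10.4. The other 5 (Adipoq, Plin1, Cidec, Cfd and Lep) were not. Signals are in arbitrary units after the dye normalisation of Feature Extraction, they differ between probes for reasons other than RNA amount, and they were not normalised between the arrays. The log2 ratios are taken within a probe and an array, and sums over marker probes, signals of an RNA across arrays and the order of signals in a plot describe brightness and are not tests. Where the signals of an RNA are said not to overlap or to lie below both of its partner, they are compared across arrays. The share of all genes for which this holds was not counted.

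None of the 47 genes passed the filter on fold change and signal. The filter asks that both arrays pass 1.5-fold with the same sign and that the brighter RNA reaches a signal of 100 each time, after the thresholds in the study's methods, and has no p-value. It counted 0 members as brighter in RNA A, where 0.157% of all 29982 genes passed, and 0 members as brighter in RNA B, where 0.23% passed. In opposite directions on the arrays 0 members passed, against 0.43% of all genes. limma on the 2 ratios called 0 of the 42 measured members at an adjusted p under 0.05, against 0.313% of the 21429 genes tested. At an unadjusted p under 0.05 limma held 4 of 42 members (9.52%), Plin4, Plin5, Fabp1 and Pdk4, against 3.78% of all genes tested. All 4 were dimmer in RNA A on both arrays. With 2 arrays the exact sign-flip p of a gene cannot be lower than 0.5, so limma, which shares its estimate of the spread across genes, is the only test with a p given here.

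The ratios of the members were small and more often below 0 than those of all genes. The median of the mean log2 ratios was −0.085 over the 42 members and 0.0067 over all genes tested. On array 1 the median was −0.19 over members and −0.00038 over all genes, and on array 2 it was −0.055 and 0.025. On both arrays 18 of 42 members (42.9%) were dimmer in RNA A, against 17.4% of all genes, and 3 of 42 (7.14%) were brighter in RNA A, namely Fabp4, Fabp5 and Angptl4, against 21.6%. Each gene was read here by its brightest probe, and among the 18 the second probes of Acsl1 and Lpl had opposite signs on the arrays. The sign differed between the arrays for 21 of 42 members (50.0%), against 61.0% of all genes. Of these 21, 14 were brighter with the green and 7 with the red dye on both arrays (66.7% green), against 53.5% green over the genes of opposite sign in all. These shares describe the lists, whose genes were measured on the same 2 arrays, and were not tested. The members were chosen with earlier results of these data known, so the shares are no unbiased comparison.

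**Figure D1:**
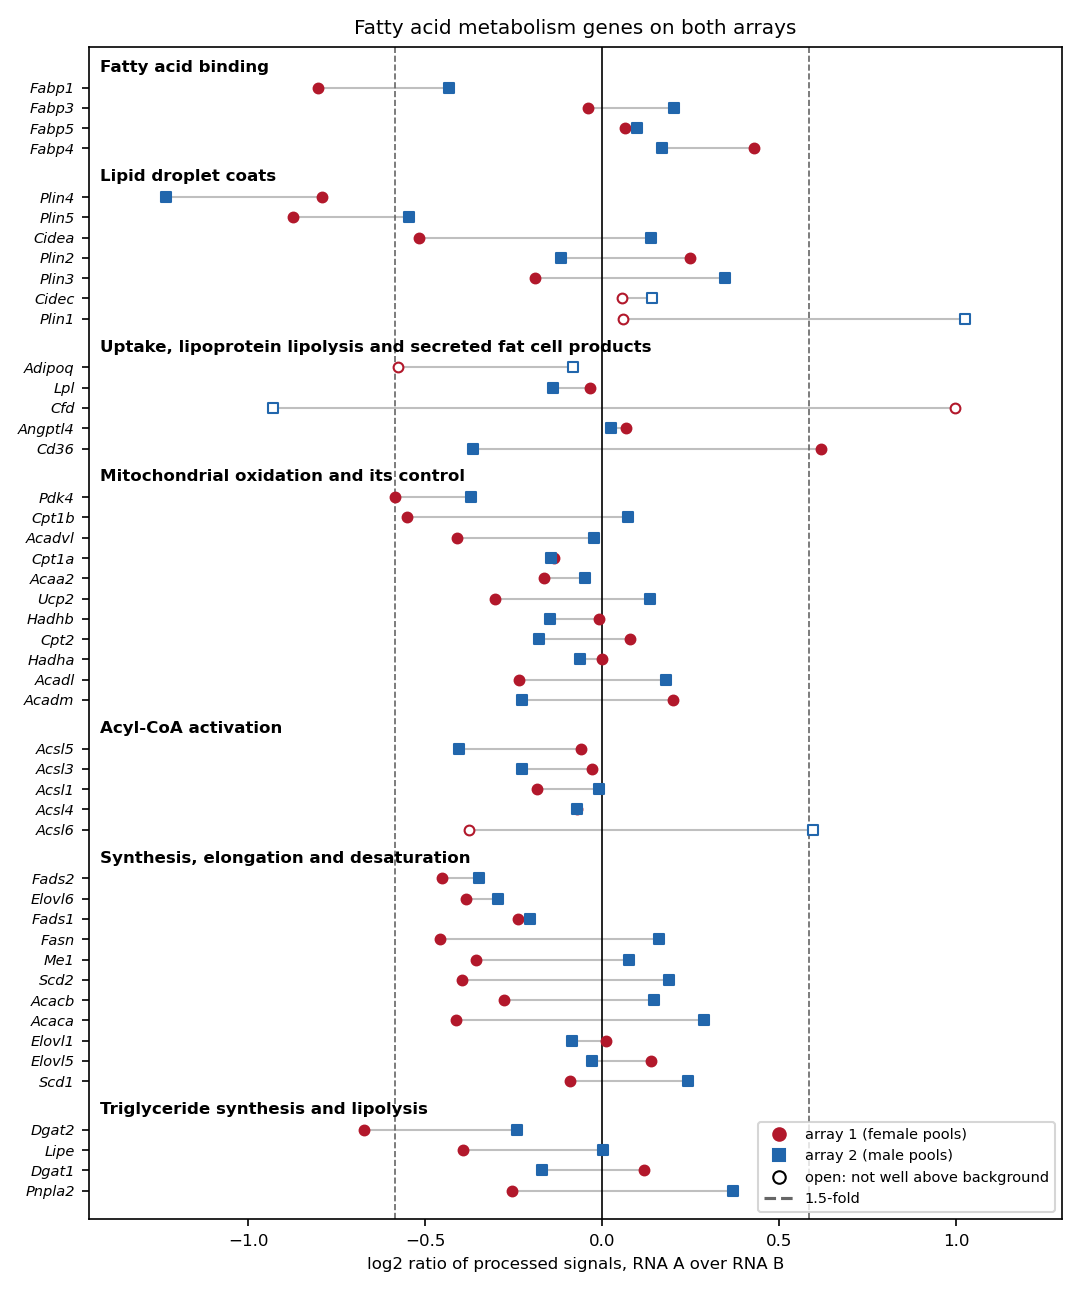
Log2 ratio of the processed signals, RNA A over RNA B (x axis), of each of the 47 genes (y axis, grouped by role and ordered by the mean of the arrays), with circles for array 1 (female pools), squares for array 2 (male pools), a grey line joining both, open symbols for the 5 genes not well above background and dashed lines at 1.5-fold. Plin4 lies beyond the dashed line on both arrays, and most other filled symbols lie between the dashed lines.

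The signals of markers of other cells also differed between the RNAs. On both arrays all 6 macrophage markers were brighter in RNA A, with summed signals of 5250.3 in RNA A against 4455 in RNA B on array 1 and of 5694 against 4940 on array 2. For the 10 urothelium markers, 5 (Upk1b, Upk2, Upk3a, Krt8 and Krt18) were dimmer in RNA A on both arrays and 1 (Krt5) was brighter. The other 4 (Cdh1, Krt19, Foxa1 and Grhl3) were dimmer in RNA A on array 1 and brighter on array 2. The urothelium sums were 112202 against 169611 on array 1 and 131574 against 164724 on array 2. Bright probes weigh most in them, with Upk3a alone at 32480 against 50577 on array 1 and 30472 against 51987 on array 2. For the 6 smooth muscle markers, 5 were dimmer in RNA A on both arrays, with sums of 77351 against 98500.2 on array 1 and 73649 against 128874 on array 2. Over all genes tested, 17.4% were dimmer and 21.6% brighter in RNA A on both arrays. The part of the marker differences in the ratios of the 47 genes was not tested. In RNA of whole ureters fewer cells of a type and less RNA per cell cannot be told apart.

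The fatty acid binding proteins, small carriers of fatty acids in the cytosol, held the highest and 1 of the 3 lowest mean ratios of the list. Fabp1, the form known from liver and gut, had signals of 73.5 in RNA A against 128 in RNA B on array 1 and of 32.0 against 43.2 on array 2. It was dimmer in RNA A within each array, but the RNAs overlapped across arrays, with both signals lower on array 2. Its mean log2 ratio was −0.62 ± 0.26 (SD, n = 2 arrays; limma adjusted p = 0.798), and the signal of 100 was reached only by RNA B of array 1. Liver markers, 6 of 6 well above background, summed to 7135 in RNA A against 7004 in RNA B on array 1 and to 2325 against 5903 on array 2, with 3 of 6 dimmer in RNA A on both arrays. Their signals were lower on array 2 than on array 1, as those of Fabp1 were, but the arrays were not normalised to each other. Within the arrays, the median log2 ratio of the liver markers was 0.0061 on array 1 and −1.30 on array 2. Fabp1 had −0.80 and −0.43, so the array with the larger difference was not the same. The part of the liver markers in the ratio of Fabp1 was not tested.

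Fabp4, the form known from fat cells, macrophages and small vessels, was the member with the highest mean ratio. It had signals of 19055 in RNA A against 14152 in RNA B on array 1 and of 19614 against 17430.4 on array 2. RNA A was brighter on both arrays and the RNAs did not overlap, yet neither ratio reached 1.5-fold. The mean log2 ratio was 0.30 ± 0.18 (SD, n = 2 arrays; limma adjusted p = 1.00). The macrophage markers given above were brighter in RNA A as well, with a median log2 ratio of 0.19, and the 6 endothelium markers had a median of 0.080, with sums of 13799 against 12880.1 on array 1 and 14025 against 14721 on array 2. Their part in the ratio of Fabp4 was not tested. The study's in situ hybridisation found no Fabp4 in the ureteric epithelium of either genotype. At later stages it showed the gene in adipose tissue around the ureter.

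Fabp5, the form known from epidermis, had signals of 20422 against 19542 on array 1 and 21597 against 20174 on array 2, with a mean value of 0.081 ± 0.025 on the log2 scale (SD, n = 2 arrays). Its 2 ratios lay among the closest of the list, and its 95% interval from limma, −0.37 to 0.53, excluded 1.5-fold in either direction. Fabp3, the form known from heart and muscle, had signals of 294 against 303 on array 1 and 323 against 281 on array 2, with ratios of opposite sign and a mean of 0.081 ± 0.17 (SD, n = 2 arrays).

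**Figure D2:**
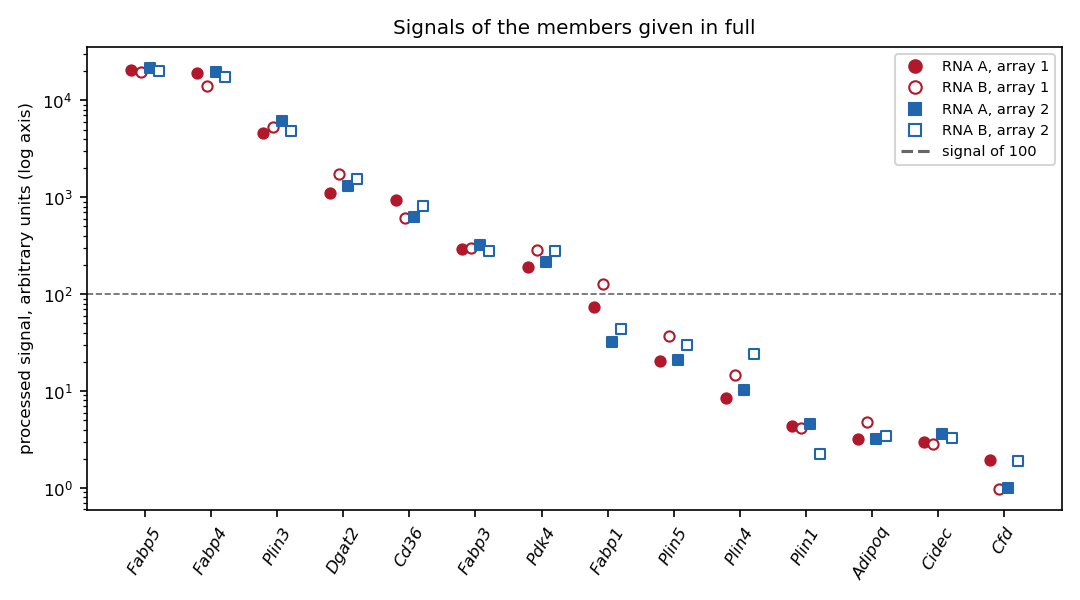
Processed signal in arbitrary units on a log axis for the 14 members given in full, ordered by the signal of RNA A on array 1, with circles for array 1 and squares for array 2, filled for RNA A and open for RNA B, and a dashed line at a signal of 100. Fabp4 and Fabp5 are the highest in every channel, Plin4 and Plin5 lie below the dashed line in every channel, and Plin1, Adipoq, Cidec and Cfd are at the lower end.

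The lipid droplet coats were dim or uneven. Plin4, a perilipin known from fat and muscle, had signals of 8.48 in RNA A against 14.7 in RNA B on array 1 and of 10.2 against 23.9 on array 2. Both signals of RNA A were below both of RNA B. The mean value of −1.01 ± 0.31 on the log2 scale (SD, n = 2 arrays) was the lowest of the members in the processed signals, with a limma adjusted p of 0.165, an unadjusted p of 0.00110 and a 95% interval of −1.49 to −0.53. In RNA A on array 1 only 1 of its 4 spots was well above background, the spots of that array varied with an SD of 0.39 in their log2 ratio, and no channel reached the signal of 100 that the filter asks for. With normexp background correction at an offset of 50, which draws the ratios of dim probes towards 0, its mean log2 ratio was −0.38 and no longer the lowest, since Fabp1 (−0.47), Pdk4 (−0.46), Dgat2 (−0.45) and Plin5 (−0.41) were lower.

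Plin5, a perilipin known for tying droplets to mitochondria in oxidative tissues, had signals of 20.3 against 37.3 on array 1 and 20.7 against 30.2 on array 2. Again both signals of RNA A were below both of RNA B. The mean log2 ratio was −0.71 ± 0.23 (SD, n = 2 arrays; limma adjusted p = 0.553), and its array 2 ratio of −0.54 was short of 1.5-fold. With normexp the mean was −0.41. Plin2 and Plin3, the perilipins found in most cells, were the brightly measured coats. Plin2 had signals of 4347 against 3660 on array 1 and 3808 against 4129 on array 2, which averaged to a value of 0.066 ± 0.26 on the log2 scale (SD, n = 2 arrays) with opposite signs. Plin3 had signals of 4659 against 5311 on array 1 and 6183 against 4865 on array 2, averaging 0.078 ± 0.38 (SD, n = 2 arrays), also with opposite signs.

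Cidea, which promotes droplet growth, was dim, with signals of 10.9 against 15.6 on array 1 and 14.0 against 12.7 on array 2 and opposite signs. Plin1 and Cidec, the perilipin and the droplet protein that mark fat cells, were not well above background in the same RNA on both arrays. Their signals ranged over 4.37 against 4.20 on array 1 and 4.56 against 2.24 on array 2 for Plin1, and over 2.95, 2.84, 3.62 and 3.28 in the same order for Cidec. No ratio is given for them.

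Of the genes of uptake and of lipoprotein lipolysis, Cd36 differed most between the arrays. Cd36, a fatty acid receptor of vessels, macrophages, muscle and fat, had signals of 946 in RNA A against 616 in RNA B on array 1 and of 628 against 809 on array 2. It was brighter in RNA A on the female array and in RNA B on the male array, in each case the red channel. The log2 ratios of 0.62 and −0.37 average to 0.13 ± 0.70 (SD, n = 2 arrays; limma adjusted p = 1.00). Only the array 1 ratio passed 1.5-fold. The 6 endothelium markers, all well above background, had medians of 0.22 on array 1 and −0.11 on array 2, and Pecam1 (0.66 and −0.42), Emcn (0.60 and −0.16) and Tek (0.50 and −0.050) had the signs of Cd36, Cdh5 (−0.44 and 0.21) and Kdr (−0.073 and 0.14) the opposite ones, and Egfl7 was dimmer in RNA A on both. Their part in the ratios of Cd36 was not tested.

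Lpl, the lipase that frees fatty acids from lipoproteins, and Angptl4, its secreted inhibitor and a known PPAR target, barely differed. Lpl had signals of 1541 against 1577 on array 1 and 1599 against 1761 on array 2, which averaged to a value of −0.087 ± 0.075 on the log2 scale (SD, n = 2 arrays). Its second probe above background had log2 ratios of 0.16 on array 1 and −0.25 on array 2. Angptl4 had signals of 3525 against 3363 on array 1 and 3051 against 2996 on array 2, averaging 0.047 ± 0.030 (SD, n = 2 arrays). The 95% intervals from limma, −0.54 to 0.36 for Lpl and −0.40 to 0.50 for Angptl4, excluded 1.5-fold in either direction.

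Adipoq and Cfd, the fat cell hormone adiponectin and the secreted protease adipsin, were not well above background. Adipoq had signals of 3.20 against 4.77 on array 1 and 3.23 against 3.42 on array 2, and Cfd had 1.95 against 0.978 on array 1 and 0.988 against 1.88 on array 2. For comparison, the lowest signals of probes well above background for RNA A were 5.14 (array 1) and 2.58 (array 2) and for RNA B 2.45 and 5.76. Cfd lay below these in every channel, and Adipoq was above the lowest such signal in RNA A of array 2 and in RNA B of array 1. The signals therefore set only an upper bound on both transcripts.

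**Figure D3:**
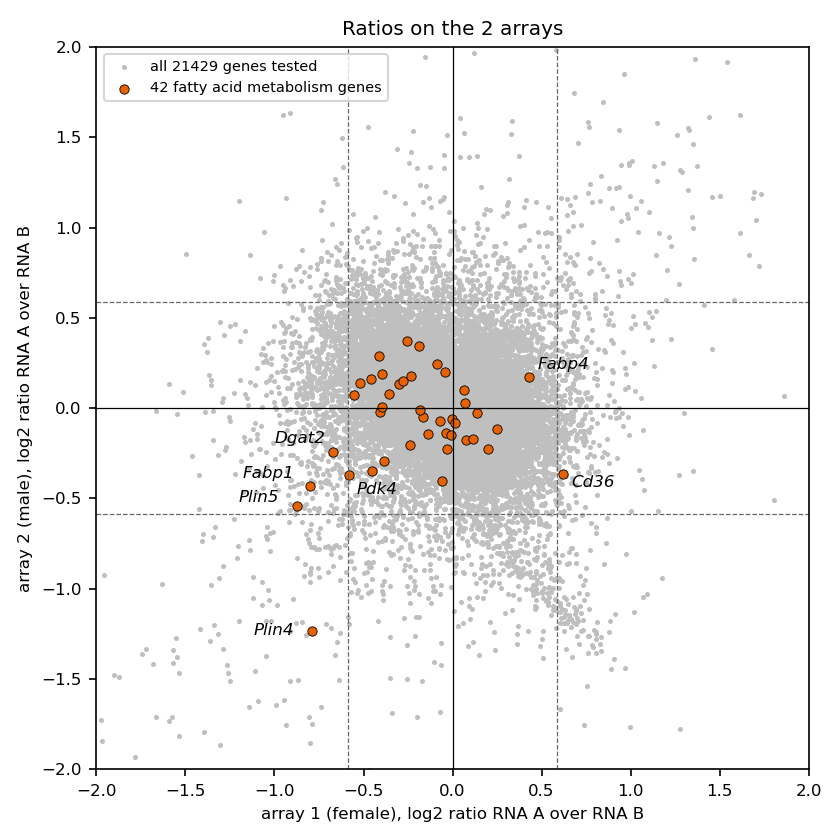
Log2 ratio of RNA A over RNA B on array 1 (x axis, female pools) against array 2 (y axis, male pools) for the 21429 genes tested (grey) and the 42 measured fatty acid metabolism genes (orange), with dashed lines at 1.5-fold; 36 genes fall outside the axes. The members sit mainly left of 0 on array 1, Plin4 is the member in the corner beyond 1.5-fold on both arrays, and Cd36 is to the right of the dashed line on array 1 and below 0 on array 2.

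Mitochondrial oxidation was measured by 11 of 11 genes, of which 6 were dimmer in RNA A on both arrays, 5 had opposite signs and 0 were brighter on both, with a median log2 ratio of −0.083. Over all genes tested, 17.4% were dimmer on both, 61.0% had opposite signs and 21.6% were brighter on both. Pdk4, the kinase that switches off pyruvate dehydrogenase when fatty acids are burnt and a known PPAR target, had signals of 193 in RNA A against 289 in RNA B on array 1 and of 217 against 281 on array 2. Both signals of RNA A were below both of RNA B, and its mean log2 ratio was −0.48 ± 0.15 (SD, n = 2 arrays; limma adjusted p = 1.00). The ratio of array 1, −0.58, was just under 1.5-fold and that of array 2 was −0.37. Its unadjusted p was 0.0420.

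The enzymes that carry fatty acids into mitochondria and shorten them lay close to equal. Cpt1a, the gate of mitochondrial import, had signals of 2347 against 2580.2 on array 1 and 2537 against 2802 on array 2, and its ratios of −0.14 on both arrays were among the most alike of the list. Its muscle form Cpt1b was dim, with 30.9 against 45.3 on array 1 and 40.7 against 38.7 on array 2. For Cpt2, the acyl-CoA dehydrogenases Acadl, Acadm and Acadvl, both subunits of the trifunctional protein (Hadha and Hadhb) and the thiolase Acaa2, mean log2 ratios ran from −0.22 for Acadvl to −0.013 for Acadm. Ucp2, a carrier of the inner mitochondrial membrane, had a mean value of −0.083 ± 0.31 on the log2 scale (SD, n = 2 arrays). The 6 markers of the respiratory chain, measured beside them as a gauge of mitochondrial content, had a median log2 ratio of −0.079.

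The acyl-CoA synthetases activate fatty acids for every later step. All 4 measured members, Acsl1, Acsl3, Acsl4 and Acsl5, were dimmer in RNA A on both arrays by their brightest probes, by little. Over all genes tested this held for 17.4%. The largest of these ratios was that of Acsl5, with signals of 2125 against 2213 on array 1 and 1819.6 against 2406 on array 2, which averaged to a value of −0.23 ± 0.24 on the log2 scale (SD, n = 2 arrays; limma adjusted p = 1.00). Acsl4 had −0.070 on array 1 and −0.072 on array 2, and Acsl1 and Acsl3 had means of −0.097 and −0.13. Acsl1 had a ratio of only −0.0098 on array 2, and with normexp background correction at an offset of 50 its ratio there was 0.0056, so that it was no longer dimmer on both. Its second probe above background had log2 ratios of 0.070 on array 1 and −0.15 on array 2. Acsl6, the brain form, was well above background in neither RNA on both arrays.

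The genes of fatty acid synthesis, elongation and desaturation split by array. On array 1, 9 of 11 were dimmer in RNA A, and on array 2, 6 of 11 were brighter, so that 8 of 11 had opposite signs and the median mean log2 ratio was −0.10. For 6 of these 8 the green channel was the brighter on both arrays. Over all genes tested, 61.0% had opposite signs, and of those 53.5% were brighter in green. The 6 were Fasn, the fatty acid synthase, Acaca and Acacb, which make malonyl-CoA, Me1, which supplies NADPH, and the desaturases Scd1 and Scd2. Acaca had the widest gap between the arrays among them, with signals of 1722 in RNA A against 2291 in RNA B on array 1 and of 2443 against 2001 on array 2. Its log2 ratios of −0.41 and 0.29 average to −0.062 ± 0.50 (SD, n = 2 arrays). Acacb was read by 2 probes above background whose mean log2 ratios, −0.064 and 0.23, had opposite signs.

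The 3 enzymes of this group with the same sign on both arrays were ones that lengthen and desaturate fatty acids. Fads2, the delta-6 desaturase, had signals of 290.2 against 397 on array 1 and 349.9 against 446 on array 2, with a mean value of −0.40 ± 0.073 on the log2 scale (SD, n = 2 arrays; limma adjusted p = 1.00). Fads1, the delta-5 desaturase, had 1081 against 1275 on array 1 and 1124 against 1294 on array 2, with a mean of −0.22 ± 0.025. Elovl6, which lengthens palmitate, had 3547 against 4633 on array 1 and 3455 against 4238 on array 2, with a mean of −0.34 ± 0.064. All 3 were dimmer in RNA A on both arrays, as 17.4% of all genes tested were, and none of the ratios reached 1.5-fold. The second probe of Fads2 had a mean log2 ratio of −0.30. Elovl1 and Elovl5 had means of −0.036 and 0.055.

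Among the genes of triglyceride synthesis and lipolysis, Dgat2 had the lowest ratio. Dgat2, which makes triglyceride from diacylglycerol, had signals of 1096 in RNA A against 1746 in RNA B on array 1 and of 1305 against 1542 on array 2. RNA A was below RNA B on both arrays without overlap. The mean log2 ratio was −0.46 ± 0.31 (SD, n = 2 arrays; limma adjusted p = 1.00, unadjusted p 0.0589), and 1.5-fold was passed on array 1 (−0.67) and not on array 2 (−0.24). Its counterpart Dgat1 had 585 against 539.9 on array 1 and 589 against 662 on array 2, averaging −0.026 ± 0.20 (SD, n = 2 arrays). The triglyceride lipase Pnpla2 had a mean of 0.058 ± 0.44 with opposite signs, and the hormone-sensitive lipase Lipe, at signals of 16.4 to 22.1, had −0.19 ± 0.28.

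The members differed widely in signal. In all 4 channels 35 members had a signal of at least 100, and 7 of the 42 were below it in at least 1 channel. Over the 35 brighter members the log2 ratios ran from −0.67 to 0.62 on array 1 and from −0.40 to 0.37 on array 2. All 7 dim members (Fabp1, Plin4, Plin5, Cidea, Cpt1b, Fasn and Lipe) were dimmer in RNA A on array 1, and 3 of them were on array 2. The median log2 ratio over all genes tested was −0.00038 on array 1 and 0.025 on array 2. The 95% interval from limma had a median reach of 0.47 on the log2 scale to either side of the mean, and for 22 of 42 members it lay within 1.5-fold in both directions, for 39 within 2-fold. The 3 members whose interval reached past 2-fold were Plin4, Plin5 and Fabp1.

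Another 63 genes of the same pathways, listed by their place in the pathways, were read for comparison, 58 of them well above background. Of these, 0 passed the filter in either direction and limma called 0 of 58, against 0.313% of all genes tested. At an unadjusted p under 0.05 limma held 5 of 58 (8.62%), against 3.78% of all genes tested. The median log2 ratio of the 58 was −0.057. On both arrays 15 of 58 (25.9%) were dimmer in RNA A, against 17.4% of all genes tested, and 9 of 58 (15.5%) brighter, against 21.6%. The lowest were the fatty acid transporter Slc27a2 (−0.81 ± 0.65, SD, n = 2 arrays) and Mogat2, which makes diacylglycerol (−0.64 ± 0.51). Slc27a2 had signals of 46.5 in RNA A against 59.4 in RNA B on array 1 and of 24.1 against 58.1 on array 2, dimmer in RNA A on both arrays without overlap.

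At the other end were the fatty acid hydroxylase Cyp4a12a (1.21 ± 0.75), the transporter Slc27a6 (0.42 ± 0.13) and the elongase Elovl7 (0.28 ± 0.022). Cyp4a12a was dim, with signals of 29.6 against 18.4 on array 1 and 26.8 against 7.98 on array 2. In RNA B on array 2 only 1 of its 4 spots was well above background, so its mean and its place as the highest rest on a channel that was not. Its limma adjusted p was 0.220. Nephron markers, of which 4 of 6 were above background (Umod and Slc12a1 were not), summed to 327 in RNA A against 511 in RNA B on array 1 and to 328 against 474 on array 2. All 4 were dimmer in RNA A on both arrays, and their part in the ratio of Slc27a2, which kidney tubules also make, was not tested.

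**Figure D4:**
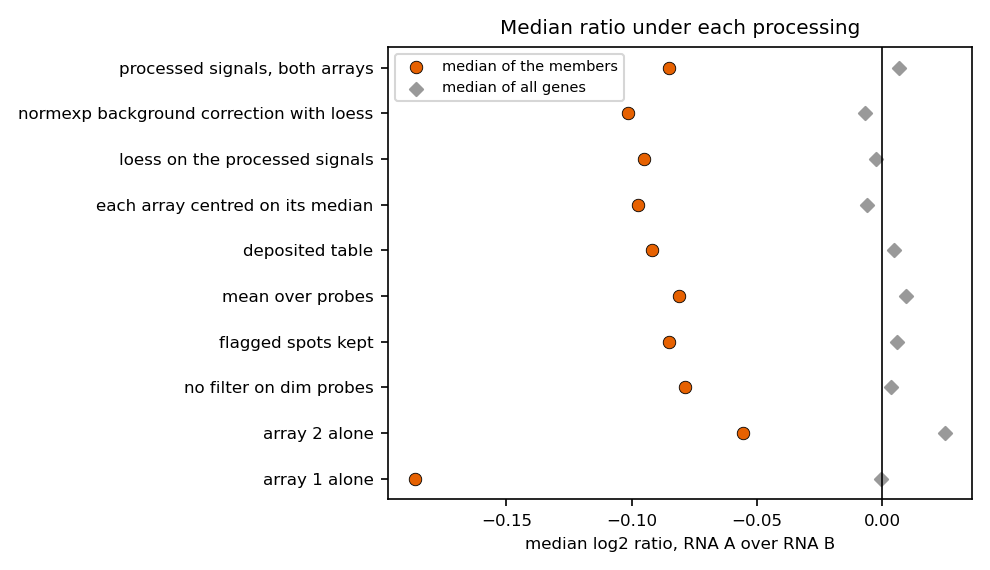
Median log2 ratio of RNA A over RNA B (x axis) of the measured fatty acid metabolism genes (orange circles) and of all genes (grey diamonds) under each way of processing the arrays (y axis). The median of the members lies below 0 in every row, from −0.19 with array 1 alone to −0.055 with array 2 alone.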

How the data were processed

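Ureter RNA of 2 Pparg-cKO and 2 control pools was measured on 2 dual-colour arrays, grouped by the labels. Per the labels and file headers, Agilent Feature Extraction 10.7.3.1 made the authors' deposited processed intensities, background-subtracted, replaced by surrogates near background and dye-normalised by a linear step and LOWESS within the array, so ratios of dim probes depend on those steps. The deposited log10 ratio (red over green) checked the dyes, and the deposited mean and background intensities fed an alternative. Signed fold changes per probe, of unstated direction, form the authors' other deposited table. It was set against the scanner values, its median is 0 on the log2 scale on both arrays, and it served as an alternative.

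Control spots and flagged spots (5705 and 5579) were left out, log2 signals averaged over the 4 spots of a probe, and a gene read by its brightest probe. RefSeq (GRCm38.p6) named 28328 of 39429 probes and 61 of the 64 member probes, and the others kept the name in the file. Detection of a probe required a share of 0.5 or more of its kept spots well above background, on each array in the same RNA. limma 3.58.1 (intercept, eBayes, R 4.3.3) with Benjamini-Hochberg adjustment over all 21429 genes gave p-values. They set the mean of 2 ratios against a spread between arrays that was largely borrowed across genes (7.59 of 8.59 degrees of freedom). That spread mixes sex with dye, and no pools were repeated within a sex. In the intensity criterion of every alternative the processed signals were kept. Members given in full are those called, the 5 highest and 5 lowest means, those past 0.4 with the same sign on each array, and Fabp4, Adipoq, Plin1, Cidec and Cfd. The others in the text are given to account for each member. Of the 63 other genes, the 3 highest and 3 lowest were to be named, and 1 of them is not reported here. The members and lists were chosen with earlier results of these data known. The filter and limma were run on simulated ratios with changes of at least 2-fold and a narrower spread between arrays than in these data. Such a run checks the code and not what could be found here. Plots used matplotlib 3.10.9. Both arrays carry the same scan time, so scan is no batch between them.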

Additional observations from a re-analysis of the deposited data

Results flagged for a closer look

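Cd36 moved in opposite directions in the pools of the 2 sexes. The log2 ratio of RNA A over RNA B was 0.62 on the female array and −0.37 on the male array, a difference of 0.98. It was the only member well above background that differed by at least 1.25-fold in both directions, a limit chosen after the data were seen. The difference was not tested, since each sex had 1 array, and sex and dye cannot be told apart. Groups of 2 arrays are too small to look for a sample far from the others. The 6 endothelium markers had median log2 ratios of 0.22 on the female and −0.11 on the male array. Of them, 3 (Pecam1, Emcn and Tek) were signed as Cd36 was, 2 (Cdh5 and Kdr) the opposite way, and Egfl7 was dimmer in RNA A on both. Their part in the values of Cd36 was not tested. Over all genes tested, 6082 of 21429 were brighter with the red dye on both arrays, as Cd36 was.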

How the results depend on the processing

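Without an intensity threshold, 1 member (Plin4) was counted as brighter in RNA B, as were 239 of all 29982 genes. In opposite directions 1 member (Cfd, which is not above background) was counted, as were 3292 of all genes. With array 1 alone, 1 member (Cd36) passed as brighter in RNA A, against 321 of all genes. As brighter in RNA B 2 members (Fabp1 and Dgat2) passed, against 637 of all genes. With array 2 alone 0 members did in either direction, against 301 (RNA A) and 488 (RNA B) of all genes. The median of the members was −0.19 with array 1 alone and −0.055 with array 2 alone, and from −0.10 to −0.079 under the other alternatives. Under the other alternatives (normexp with loess, loess on processed signals, median centring, the deposited table, the mean over probes, flagged spots kept, signals of at least 50 or 200, and 2-fold) each count of members past the filter was 0 as well. limma called 0 members in all 8 alternatives fitted, while the count over all genes went from 67 to between 0 and 94 (94 with the mean over probes, 45 with flagged spots kept, 28 with loess, 1 with normexp, 0 with the deposited table and 0 without the filter on dim probes). The lowest adjusted p of a member over all alternatives was 0.0975, that of Plin4 with the mean over probes. Normexp, whose offset of 50 draws the ratios of dim probes towards 0 by construction, moved Plin4 from −1.01 to −0.38 and Plin5 from −0.71 to −0.41. No member given in full and above background changed the sign of its mean with both arrays in use. Of the 18 members dimmer in RNA A on both arrays, 17 were so under all 4 scalings, and all 3 that were brighter on both were. These counts read each gene by its brightest probe, and the second probe of Lpl had opposite signs on the arrays. Leaving out an array gives no value for limma or for opposite directions. Each ratio already pairs both RNAs within an array, and the 2 arrays leave nothing further to block on.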
